A study of Mus musculus with 6 samples.

Results

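The Dlk1 to Dio3 imprinted domain of mouse chromosome 12 was examined in 6 libraries of mouse embryonic stem (ES) cells. It was taken as the 900 kb interval chr12:110650001-111550000 of build mm9, set by position and not by a cut on any measured value. Earlier results of these data were known when it was chosen. It was read in 900 windows of 1 kb and 90 windows of 10 kb. All of these passed a filter on very low and very high read numbers, out of 2521570 windows of 1 kb and 252157 windows of 10 kb that passed it over the genome. The named members were the genes Dlk1, Meg3, Rtl1, Rian, Mirg and Dio3, and 1 Mb on each side served for comparison.

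All libraries came from ES cells of strain C57Bl/6, kept in leukaemia inhibitory factor (LIF) with no feeder layer. There was 1 chromatin immunoprecipitation (ChIP) library of H2A.B, a short variant of histone H2A, made with a rabbit antibody of the submitters' own, and 1 ChIP library with rabbit IgG, a non-specific antibody that gives the background. There were 3 methylated DNA immunoprecipitation (MeDIP) libraries made with an antibody to 5-methylcytosine (5mC), and 1 MeDIP library with mouse IgG. The labels give no name of the cell line, and they do not say if each 5mC library had a culture of its own. A p-value here therefore rests on the spread among these libraries alone, and that spread may be technical. The libraries hold DNA, so the labelled cell type could not be checked against marker transcripts.

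Imprinted genes are expressed from the chromosome of 1 parent. In this domain the protein-coding genes Dlk1, Rtl1 and Dio3 are known to be expressed mainly from the paternal chromosome, and the non-coding RNAs Meg3, Rian and Mirg from the maternal one. Their control region lies between Dlk1 and Meg3 and is known to be methylated on the paternal chromosome from the sperm onward, while the Meg3 promoter gains paternal methylation after fertilisation. In cultured ES cells this domain is known for methylation and Meg3 expression that vary between lines. The strain is inbred, so the reads could not be assigned to a parental chromosome, and every value below is the sum of both alleles.

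MeDIP recovers fragments by their methylated cytosines, which in mammals lie mostly in CpG dinucleotides, so the bases around the starts of the members are shown first. RefSeq promoter sequences of build GRCm38.p6, from 250 bases before to 50 bases after the start, were matched for 5 of the 6 members. The 3 below are those whose starts could be placed among the reads. All are on the plus strand of chromosome 12, with CpG in capitals, and their coordinates belong to GRCm38.p6 and cannot be set beside the mm9 positions used elsewhere.
Dlk1 promoter, chr12:109452573-109452872: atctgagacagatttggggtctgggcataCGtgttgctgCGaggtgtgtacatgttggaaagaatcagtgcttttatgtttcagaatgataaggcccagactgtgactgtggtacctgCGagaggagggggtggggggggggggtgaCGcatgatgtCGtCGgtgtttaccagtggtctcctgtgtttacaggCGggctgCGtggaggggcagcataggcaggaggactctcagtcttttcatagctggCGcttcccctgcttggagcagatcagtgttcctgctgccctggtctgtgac
Meg3 promoter, chr12:109540746-109541045: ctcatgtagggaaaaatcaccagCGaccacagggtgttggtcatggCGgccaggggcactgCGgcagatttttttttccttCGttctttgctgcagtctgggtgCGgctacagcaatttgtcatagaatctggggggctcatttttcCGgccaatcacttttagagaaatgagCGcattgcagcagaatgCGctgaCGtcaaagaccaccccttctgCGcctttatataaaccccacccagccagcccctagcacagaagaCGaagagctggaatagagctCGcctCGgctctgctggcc
Dio3 promoter, chr12:110278980-110279279: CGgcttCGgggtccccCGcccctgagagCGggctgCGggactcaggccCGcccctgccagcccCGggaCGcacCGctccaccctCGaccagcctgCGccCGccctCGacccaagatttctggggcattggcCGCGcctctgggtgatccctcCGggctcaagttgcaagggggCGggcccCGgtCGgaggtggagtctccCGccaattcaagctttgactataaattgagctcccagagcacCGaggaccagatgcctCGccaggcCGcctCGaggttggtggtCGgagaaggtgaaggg
The Dlk1 sequence held 9 CpG and the Meg3 sequence 13, against a median of 7 over 32851 promoters of the same length. The Dio3 sequence held 25, a number that 18.4% of the promoters reached, and had 69.0% G and C. The promoters of Mirg and Rian, not shown, held 10 and 0 CpG. A second Meg3 start in the same table, also not shown, held 1 CpG, and 94.6% of promoters held at least as many. For Dlk1, the Meg3 sequence shown and Mirg these shares were 45.8%, 37.9% and 43.5%, so these 3 were nearer the middle of all promoters, and Dio3 held the most CpG of the 6 sequences.

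Reads were counted once per position and strand (distinct reads). The H2A.B library held 8053559 distinct reads and IgG ChIP 539303. The 5mC libraries held 1396972, 1893285 and 803580 in replicates 1, 2 and 3, and IgG MeDIP 124157. Replicate 1 shared a sequencing lane and a read length of 42 bp with H2A.B, whereas replicate 2 shared a lane with IgG MeDIP and replicate 3 shared a lane with IgG ChIP, all 4 with 50 bp reads on a second flow cell. For H2A.B against IgG ChIP, flow cell and antibody therefore cannot be told apart. All 201263 reads of the IgG MeDIP list were also present in the list of replicate 2 and were removed from it. The lists of replicates 2 and 3 consisted of 4 and 3 separately sorted blocks, of unstated origin. Intervals in brackets are exact 95% Clopper-Pearson intervals and cover counting error only.

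Across the whole domain, reads were denser than in the typical part of the genome in all 6 libraries, the IgG controls included. The domain held 4187 distinct reads of H2A.B, 1652, 1119 and 354 of 5mC replicates 1, 2 and 3, 220 of IgG ChIP and 64 of IgG MeDIP. Normalised to the total of distinct reads (CPM) this was 520 for H2A.B, 1183, 591 and 441 for the 5mC replicates, 408 for IgG ChIP and 515 for IgG MeDIP. Replicate 1 was high, and the other 5 libraries lay between 408 and 591. Set against the median window of 900 kb, the domain was 1.61 times as dense in H2A.B and 1.25 times in IgG ChIP. It was 4.44, 1.95 and 1.35 times as dense in the 5mC replicates (2.58 ± 1.64, SD, n = 3) and 1.94 times in IgG MeDIP. Between 82.3% (IgG ChIP) and 99.1% (replicate 1) of 2852 windows were at or below it.

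**Figure D1:**
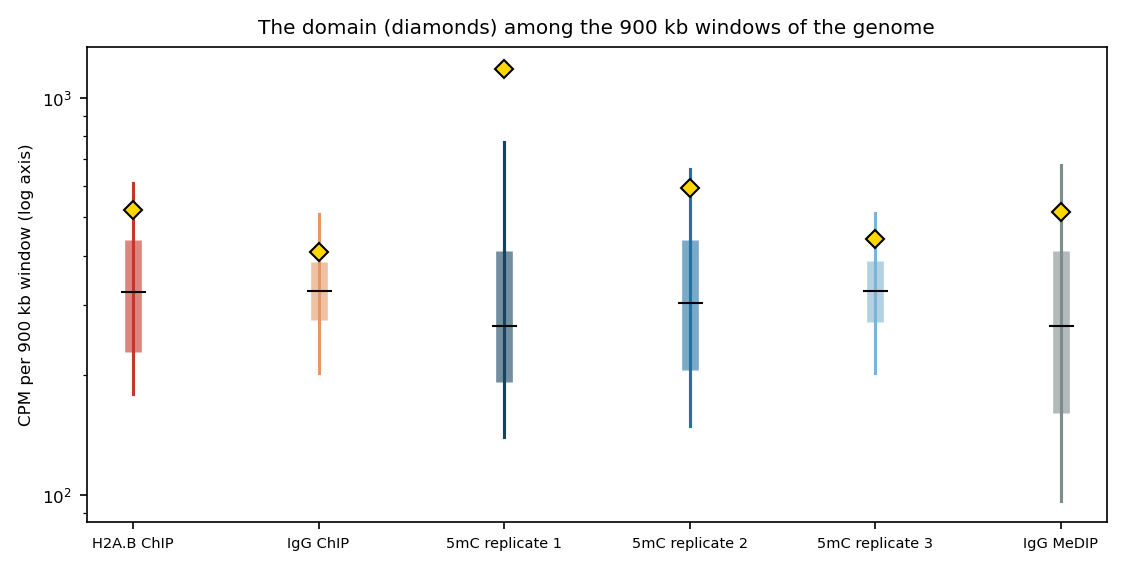
CPM per 900 kb window on a log axis for each library, with the median (black line), the interquartile range (box) and the 5th to 95th percentile (thin line) over the genome, and the domain as a diamond. The domain lies above the median in all 6 libraries, and above the thin line only in 5mC replicate 1 at 1183 CPM.

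The question of whether 5mC in the domain exceeds its IgG background was tested with limma on log2 CPM over 900 kb windows, all libraries thinned to the depth of IgG MeDIP. The domain differed from IgG MeDIP by 0.35 on the log2 scale (SE 0.556, Benjamini-Hochberg adjusted p = 0.992, 3 libraries against 1), which did not pass the threshold. The median of all windows was 0.18, and 63.8% of windows were at or below the domain. Over the genome limma called 0% of windows higher and 0% lower, while 165 windows were higher and 11 lower where p before adjustment was under 0.05, so the domain was 0 of 1 against a background of 0. Single libraries over IgG MeDIP gave CPM ratios of 2.29 (1.79 to 2.99), 1.15 (0.891 to 1.5) and 0.855 (0.653 to 1.13) for replicates 1, 2 and 3. The positive difference rested on replicate 1: without it, in the 3 libraries of the second flow cell, limma gave -0.03 with an adjusted p of 0.981.

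H2A.B had no replicate and no test. Its CPM ratio to IgG ChIP over the domain was 1.27 (1.11 to 1.47). The ratio was 1.34 (1.18 to 1.53) in the left flank and 1.46 (1.29 to 1.65) in the right flank, so the domain was not above its surroundings in this measure.

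Compared with its own flanks, the domain was a little poorer in H2A.B reads. The density over the domain divided by that over both flanks was 0.875 (0.844 to 0.907) in H2A.B and 0.962 (0.818 to 1.13) in IgG ChIP. In the 5mC replicates it was 0.847 (0.800 to 0.897), 1.04 (0.969 to 1.12) and 0.992 (0.873 to 1.13), or 0.960 ± 0.101 (SD, n = 3), and in IgG MeDIP 1.26 (0.911 to 1.73). The 2 libraries of the first flow cell had intervals below 1, and the other 4 had intervals that held 1. The difference of the 5mC mean minus IgG MeDIP was -0.298. An exact two-sided permutation test gave p = 0.25, the smallest that 3 libraries against 1 allow. The flanks differed from each other in the 2 libraries of the first flow cell. H2A.B had 4.652 reads per kb in the domain, 4.796 in the left flank and 5.835 in the right flank. Replicate 1 had 1.836, 1.838 and 2.495 in the same order. Both libraries were thus close to their left flank in the domain, and their ratios below 1 came mostly from the right flank. The high density of replicate 1 in the domain was thus shared by the 1 Mb on each side.

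Of the 4 places read singly (Dlk1, the intergenic control region, the Meg3 start and Dio3), the control region had the highest density in all 6 libraries, the IgG controls included. This 4 kb region (chr12:110765001-110769000) is the imprinting control element, with methylation of the paternal copy as its known mark. It held 36, 8 and 5 distinct reads of 5mC replicates 1, 2 and 3 beside 1 of IgG MeDIP, and 35 reads of H2A.B beside 3 of IgG ChIP. Divided by each library's own mean density over the domain, this was 4.90 (3.44 to 6.76), 1.61 (0.696 to 3.16) and 3.18 (1.04 to 7.35) for 5mC (3.23 ± 1.65, SD, n = 3). For H2A.B it was 1.88 (1.31 to 2.61). The IgG libraries gave 3.07 (0.635 to 8.85) for ChIP and 3.52 (0.0890 to 18.9) for MeDIP, on 3 reads and 1 read. All 6 libraries were above their domain mean, with intervals clear of 1 in H2A.B and in 5mC replicates 1 and 3. In this region H2A.B over IgG ChIP was 0.781 (0.246 to 3.97), so an excess of H2A.B over IgG was not detectable at this depth. The 5mC replicates over IgG MeDIP gave 3.20 (0.539 to 130), 0.525 (0.0703 to 23.3) and 0.773 (0.0864 to 36.5) on the 1 IgG read, so an excess of 5mC over IgG was not detectable here either.

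The H2A.B and 5mC reads of the control region were concentrated in its first 2 kb, and in part they extended across its start. The 1 kb window just before it, chr12:110764001-110765000, held 10 reads of H2A.B, which is high by the rule given below. It held 3, 6 and 1 of the 5mC replicates. In the 4 successive 1 kb windows H2A.B had 18, 12, 3 and 2 reads, replicate 1 had 12, 16, 2 and 6, replicate 2 had 6, 1, 1 and 0, and replicate 3 had 3, 1, 1 and 0. IgG ChIP had 1, 0, 1 and 1, and IgG MeDIP had 1 in the first window only. H2A.B was high in the first and second windows and replicate 1 in the same pair, while replicates 2 and 3 had most of their reads in the first. Reads came from both strands, 18 plus and 17 minus in H2A.B and 17 plus and 19 minus in replicate 1. Among 605670 windows of 4 kb over the genome, 0.0550% held at least as many reads of replicate 1, 6.50% of replicate 2, 1.81% of replicate 3 and 1.08% of H2A.B. The same shares were 5.82% for IgG ChIP and 13.7% for IgG MeDIP. Among the 223 windows of 4 kb inside the domain, with ties not counted, 1 was above it in replicate 1, 1 in replicate 3, 32 in replicate 2 and 4 in H2A.B. In the IgG libraries 6 were above it for ChIP and 9 for MeDIP.

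**Figure D2:**
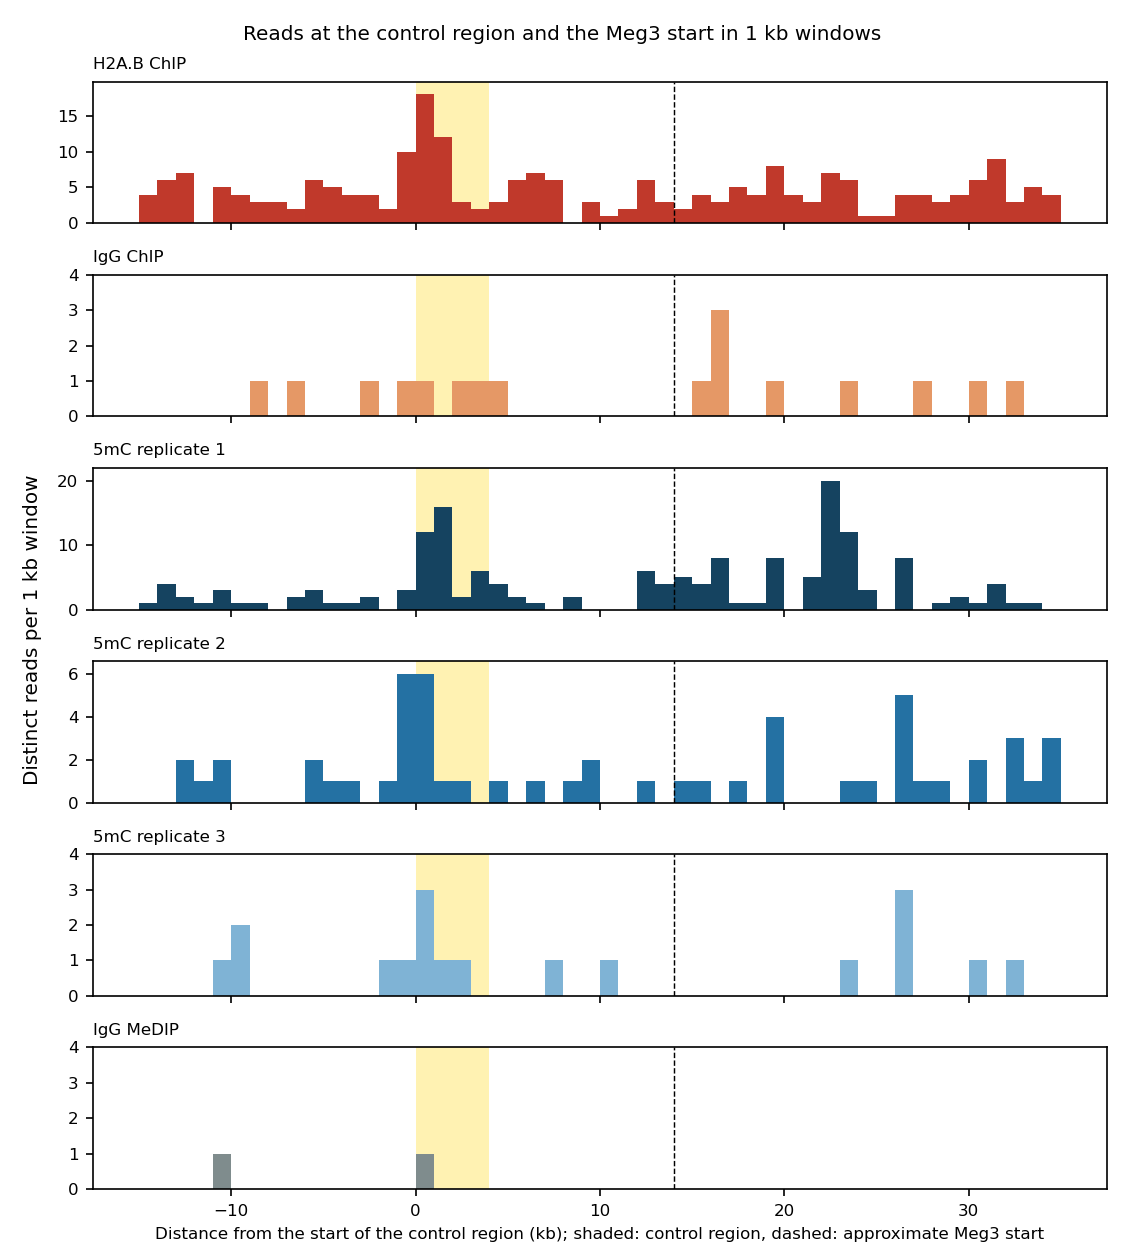
Distinct reads per 1 kb window in each library against the distance in kb from the start of the control region, which is shaded, with the approximate start of Meg3 dashed. H2A.B and 5mC replicate 1 peak in the first 2 kb of the shaded region (18 and 12, and 12 and 16 reads), and replicate 1 again 22 and 23 kb from its start with 20 and 12 reads. The window just before the shaded region holds 10 reads of H2A.B and 6 of replicate 2.

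Dlk1 codes for a transmembrane protein of the Notch ligand family that holds back adipocyte differentiation. Its 8 kb (chr12:110691001-110699000) held 33 reads of H2A.B, 19, 14 and 0 of the 5mC replicates, 3 of IgG ChIP and 0 of IgG MeDIP. Over the domain mean this was 0.887 for H2A.B, 1.29 and 1.41 for 5mC replicates 1 and 2, and 1.53 for IgG ChIP. The 5mC mean was 0.900 ± 0.782 (SD, n = 3), with replicate 3 at 0 reads, and 1.35 without that library. Neither mark was raised over the domain mean at Dlk1 beyond counting error or the spread of the replicates. The zeros of the 2 shallowest MeDIP lists allow up to 3.73 CPM in replicate 3 and 24.2 CPM in IgG MeDIP, taking 3 reads as the limit.

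Meg3 is a long non-coding RNA, and its promoter is the secondary methylated region of the domain. The 4 kb around its approximate start (chr12:110777001-110781000) held 15 reads of H2A.B, 19, 3 and 0 of the 5mC replicates, 1 of IgG ChIP and 0 of IgG MeDIP. Replicate 1 was 2.59 (1.56 to 4.03) times its domain mean and replicate 2 was 0.603 (0.124 to 1.76). The 5mC mean of 1.06 ± 1.35 (SD, n = 3) did not differ from the domain mean beyond that spread, and without replicate 1 it was 0.302. H2A.B was at 0.806 of its domain mean. The replicates thus disagreed at the Meg3 start, and only the first was clear of its own mean.

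Further into Meg3, 2 windows chosen after their values were seen held many reads of replicate 1, alone among the 5mC libraries. The windows chr12:110787001-110788000 and chr12:110788001-110789000, which begin 8 and 9 kb after the start, held 20 and 12 reads of replicate 1. In the same windows replicate 2 had 0 and 1, replicate 3 had 0 and 1, and IgG MeDIP had 0 and 0. H2A.B had 7 and 6 reads there, against 4.65 per kb over the domain, and IgG ChIP had 0 and 1. A count of 20 or more reads in replicate 1 was found in 0.0415% of 1 kb windows over the genome. A window 12 kb after the start, chr12:110791001-110792000, held at least 3 reads of each 5mC library, 8, 5 and 3, beside 4 of H2A.B and 0 of both IgG libraries.

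H2A.B, from the same lane as replicate 1, gives another measure of that library. The CPM ratio of replicate 1 to H2A.B was 2.27 (2.15 to 2.41) over the domain, and 2.21 and 2.47 in the left and right flanks. It was 5.93 (3.62 to 9.73) in the control region and 7.30 (3.52 to 15.4) at the Meg3 start. At Dio3 it was 4.85 (2.34 to 9.97), and at Dlk1 3.32 (1.78 to 6.01). The intervals of the control region and the Meg3 start lay above that of the domain, and those of Dio3 and Dlk1 overlapped it, in 1 library of each kind. Replicate 3 over its lane-mate IgG ChIP was 1.08 (0.910 to 1.28) over the domain.

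Rtl1, Rian and Mirg follow Meg3, in that order in RefSeq. Rtl1 codes for a retrotransposon-derived protein needed in the placenta, Rian is a host of small nucleolar RNAs and Mirg a host of microRNAs. The RefSeq table lists 61 microRNA genes and 19 small nucleolar RNA genes between Dlk1 and Dio3. These 3 members were not placed singly on mm9, and the 734 kb from the Meg3 start to Dio3 that holds them is given as a whole. It held 3366 reads of H2A.B, 1280, 880 and 280 of the 5mC replicates, 186 of IgG ChIP and 45 of IgG MeDIP. The 5mC libraries were at 0.95, 0.964 and 0.970 of their domain means (0.961 ± 0.0102, SD, n = 3), H2A.B at 0.986, IgG ChIP at 1.04 and IgG MeDIP at 0.862. The stretch makes up most of the domain, and its mean was therefore bound to lie near that of the domain.

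That stretch was uneven. The 100 kb segment with the fewest reads, chr12:110850001-110950000, held 62, 76 and 26 reads of the 5mC replicates, or 0.338, 0.611 and 0.661 of their domain means (0.537 ± 0.174, SD, n = 3). H2A.B had 296 reads there, at 0.636, IgG ChIP 19 at 0.777 and IgG MeDIP 5 at 0.703. All 6 libraries were below their domain mean in this segment, and H2A.B and the 3 5mC libraries were at their lowest of the 9 segments. The segment before it, chr12:110750001-110850000, which holds the control region and the Meg3 start, had the highest 5mC mean, at 1.55, 1.06 and 1.07 times the domain mean (1.23 ± 0.279, SD, n = 3). Only replicate 1 was at its highest there. Replicate 2 was highest in the first segment of the domain, at 1.20, and replicate 3 in chr12:111050001-111150000, at 1.35. H2A.B over IgG ChIP ran from 0.927 (0.643 to 1.38) in chr12:110950001-111050000 to 2.1 (1.30 to 3.63) in the last segment, chr12:111450001-111550000, which holds Dio3. The first segment, which holds Dlk1, was next at 1.95 (1.21 to 3.38), and the segment from 111050001 had 1.76 (1.1 to 2.99). In that order these segments held 533, 496 and 472 reads of H2A.B. They held 17, 17 and 18 of IgG ChIP, the fewest of the 9 segments. At the genes themselves the ratio was 0.636 (0.153 to 5.63) for Dio3 and 0.737 (0.231 to 3.75) for Dlk1, so neither showed an excess of H2A.B.

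**Figure D3:**
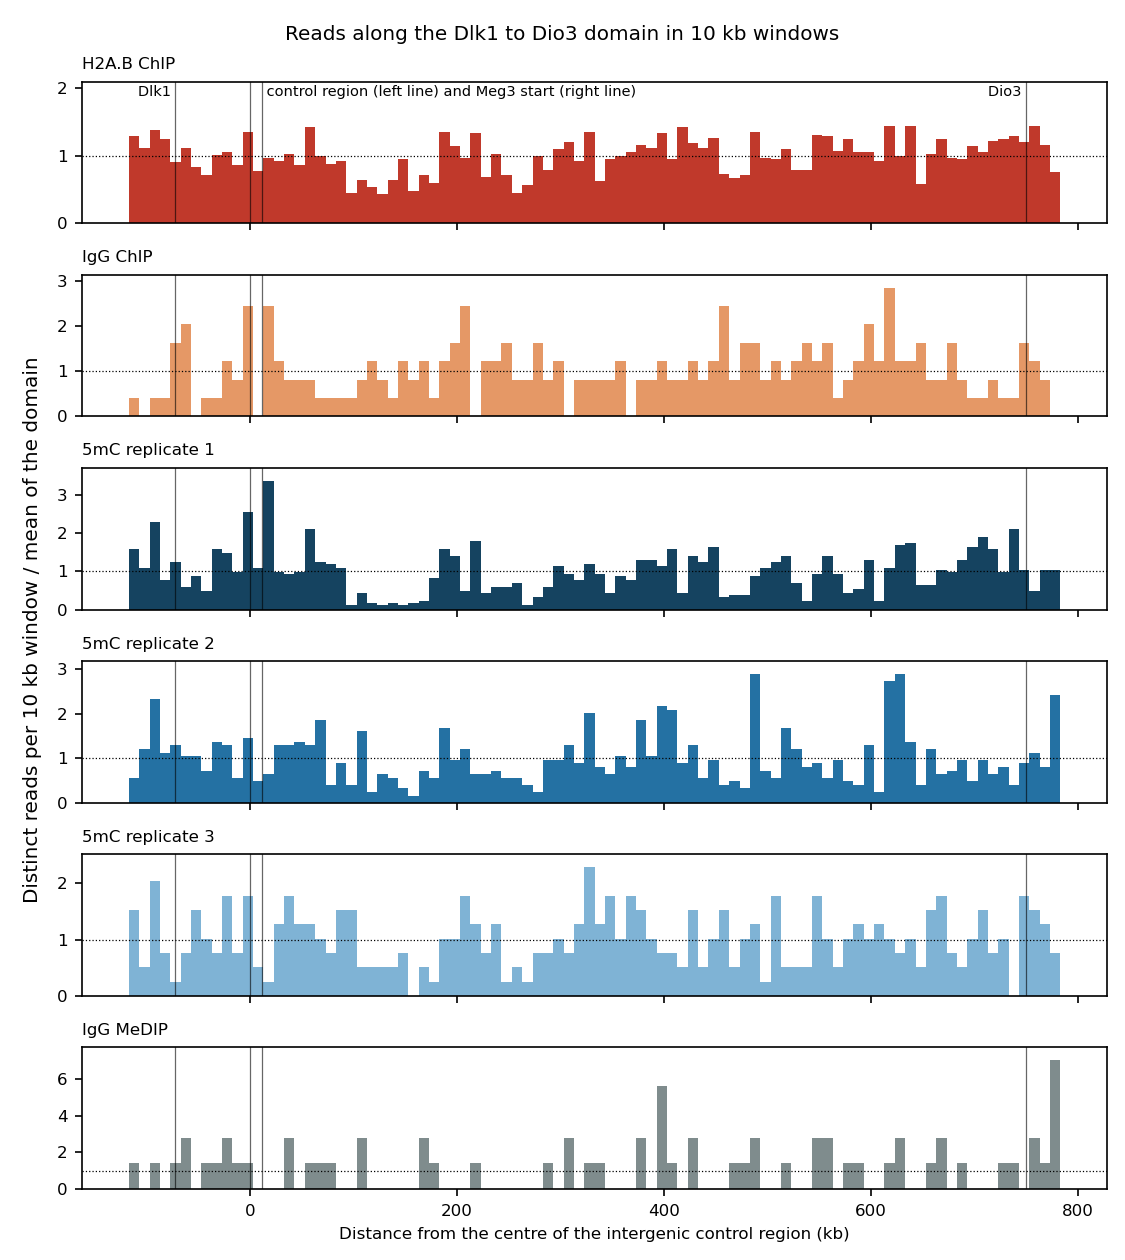
Distinct reads per 10 kb window divided by the library's mean over the domain (dotted line at 1), against the distance in kb from the centre of the control region, with lines at Dlk1, the control region, the Meg3 start and Dio3. The low stretch downstream of Meg3 is the 100 kb segment where H2A.B is at 0.636 and 5mC replicate 1 at 0.338 of the mean, while the IgG libraries have too few reads for a profile.

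Dio3 codes for the deiodinase that inactivates thyroid hormone. The 4 kb around it (chr12:111515001-111519000) held 19 reads of H2A.B, 16, 4 and 4 of the 5mC replicates, 2 of IgG ChIP and 0 of IgG MeDIP. The 5mC libraries were at 2.18 (1.25 to 3.53), 0.804 and 2.54 (0.695 to 6.45) times their domain means (1.84 ± 0.917, SD, n = 3). H2A.B was at 1.02, and its ratio to IgG ChIP was 0.636 (0.153 to 5.63). The mean of 5mC was within 1 SD of the domain mean, with replicates 1 and 3 above it and replicate 2 below. Of Dio3, Dlk1 and the Meg3 start, Dio3 had the highest 5mC mean, but it was the highest only in replicate 3. Replicate 1 was higher at the Meg3 start, at 2.59, and replicate 2 at Dlk1, at 1.41. The replicates of the 3 places overlapped in range, and a link to the CpG of their promoters was not tested.

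**Figure D4:**
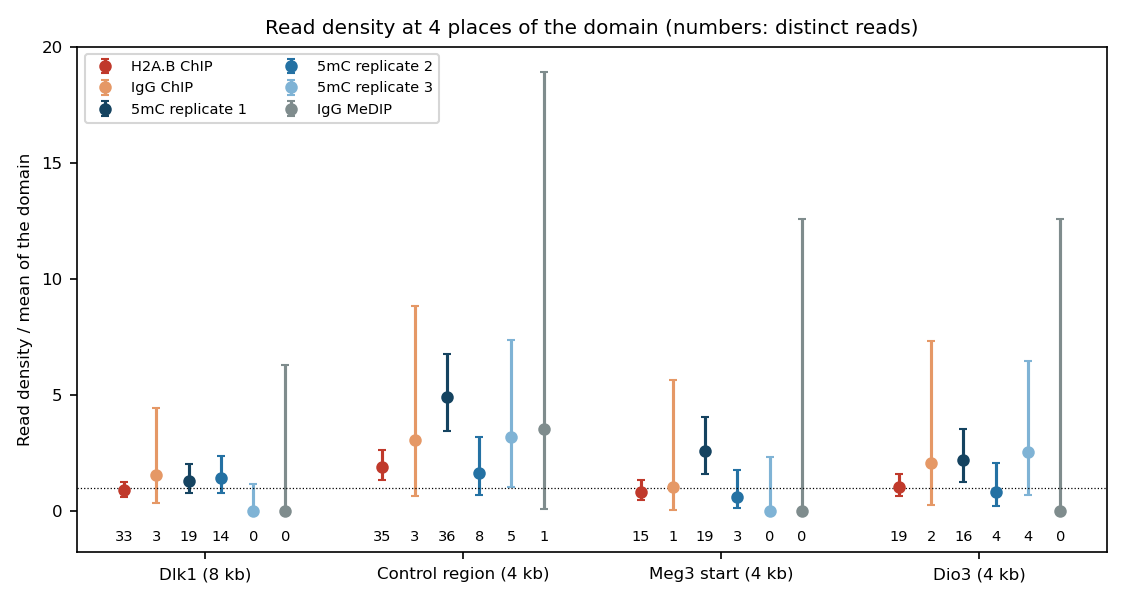
Read density over the domain mean at Dlk1, the control region, the Meg3 start and Dio3 in each library, with exact 95% intervals and the distinct reads printed below each point. The control region is the one place where all 6 points lie above 1, from 1.61 in 5mC replicate 2 to 4.90 in replicate 1.

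Windows of 1 kb with at least 3 distinct reads in each of the 3 5mC libraries numbered 6 of 900 in the domain, against 0.11% of windows over the genome (2776) and 5 of 1990 in the flanks. The first window of the control region, chr12:110765001-110766000, was one of them, with 12, 6 and 3 reads. The largest value of the lowest 5mC CPM, 6.22, was at chr12:110670001-110671000, 95 kb before the control region and in the stretch before Dlk1, with 17, 25 and 5 reads beside 22 of H2A.B and 1 of each IgG library. The window chr12:111095001-111096000 followed with 13, 18 and 4 reads and 23 of H2A.B. The other 3 were chr12:111528001-111529000 with 5, 11 and 3 reads, the window 12 kb into Meg3 given above, and chr12:111363001-111364000 with 7, 4 and 3. Of the rest of the domain, 9 windows had a lowest count of 2 and 4 of the 6 called windows a lowest count of exactly 3. Without replicate 3 the rule called 52 windows in the domain, where 1.45% of the genome's windows were called. With the first sorted block of the replicate 3 list alone, a setting chosen after seeing the data, it called 3 and the control region was not among them. Over the genome that setting called 0.0649% of windows.

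The same 6 windows were also rich in reads that the rule did not use. H2A.B had 84 reads there, 3.01 (2.40 to 3.72) times its domain mean. IgG ChIP had 6, or 4.09 (1.51 to 8.76) times, and IgG MeDIP had 4, or 9.38 (2.59 to 22.9) times. Over the genome the 2776 windows of this kind held 4.81 times the mean of H2A.B, 7.83 times that of IgG ChIP and 34.8 times that of IgG MeDIP. Of these 2776 windows, 981 held no read of IgG ChIP and 1138 held none of IgG MeDIP. In the domain 1 and 2 of the 6 windows held none. On average the IgG libraries were thus raised in the 5mC windows in the domain and over the genome, though not in every window. Their part in the 5mC counts was not tested.

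Windows of 1 kb with at least 3 times the mean of H2A.B, which came to 10 reads or more, numbered 51 of 900 (5.67%). Over the genome 2.53% of windows reached this, and in the flanks 10.0%, or 199 of 1990. The domain thus lay between the genome and its own surroundings. The highest were chr12:111095001-111096000 with 23 reads, and chr12:110670001-110671000 and chr12:111387001-111388000 with 22 each, followed by the first window of the control region with 18. Just inside the threshold 20 windows had 10 reads, and just outside it 27 had 9. In the 51 windows the 5mC replicates had 2.51, 3.44 and 2.24 times their domain means, IgG ChIP 2.25 (1.52 to 3.15) and IgG MeDIP 4.14 (2.43 to 6.30). Neither IgG value was below the range of the 5mC replicates, and the part of the IgG signal in these windows was not tested. Of the 6 windows high in 5mC, 4 were among the 51 high in H2A.B, which is 66.7% of the first list and 7.84% of the second. Over the genome 1555 windows were high in both, which is 56.0% of those high in 5mC and 2.44% of those high in H2A.B. In the flanks it was 4 of 5 and 4 of 199.

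In windows of 10 kb, 1 of 90 passed the rule for H2A.B over IgG ChIP, a CPM ratio of at least 1.5 with a lower bound above 1. The background was 0.617% of windows over the genome, and the flanks had 8 of 199. The window, chr12:110980001-110990000, lay downstream of Meg3 with 62 reads of H2A.B and 0 of IgG ChIP. With no IgG read its ratio has no finite value and passed on its exact lower bound of 1.09, and with 3 reads taken as the limit of IgG it was at least 1.38-fold higher, under the 1.5 of the rule. It held 33, 8 and 5 reads of the 5mC replicates and 1 of IgG MeDIP. With the libraries exchanged the rule called 0 of 90, where 2.62% of windows were called over the genome. The window passed through a count of 0 in IgG ChIP, whose median over the 90 windows was 2 reads, and was no longer called when the ratio was divided by the median of the flanks.

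Across the 90 windows H2A.B ran from 20 to 67 reads with a median of 46.5. The 5mC replicates ran from 2 to 62 with a median of 18, from 2 to 36 with a median of 11, and from 0 to 9 with a median of 4. H2A.B and 5mC replicate 1 followed each other most closely, with a Spearman rho of 0.582 across the 90 windows, and replicates 2 and 3 gave 0.432 and 0.402 with H2A.B. Between 5mC replicates rho was 0.460 (replicates 1 and 2), 0.184 (1 and 3) and 0.257 (2 and 3). IgG MeDIP reached 0.374 with replicate 2 and 0.280 with H2A.B, above the values of replicate 3 with the other 5mC libraries. With replicates 1 and 3 it gave 0.195 and 0.161, and 47 of the 90 windows held no IgG MeDIP read. H2A.B and replicate 1 share a lane and a read length, as do replicate 2 and IgG MeDIP. Base composition was also not available for any window, so these are descriptions of 90 neighbouring windows. Over 199 windows of the flanks, H2A.B had a rho of 0.681 with replicate 1, 0.546 with replicate 2 and 0.0759 with replicate 3.

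The 900 kb windows whose 6 CPM values were closest to those of the domain, by Euclidean distance in log2 CPM, were on chromosomes 17, 12, 7 and 5. The closest was chr17:6250001-7150000 at a distance of 0.257, with 1095 CPM of 5mC replicate 1 and 575 CPM of H2A.B against 1183 and 520 in the domain. On chromosome 12 itself chr12:100750001-101650000 and chr12:87250001-88150000 followed at 0.365 and 0.399.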

How the data were processed

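The deposited files are lists of aligned reads; per the submitters' processing notes, Bowtie, FastQC and build mm9 were used, with no versions. Alignment settings and the handling of multiple matches: not given in the sources used here. The deposited score column of each list was left unused. Lines without the format of the rest were left out (1 of H2A.B, 8 of 5mC replicate 1), and 2979 blank strands in replicate 2 were read as plus. Distinct reads of chromosomes 1 to 19, X and Y were placed at their 5′ end and counted. Distinct reads were 86.9% of H2A.B reads, 39.9%, 47.1% and 52.5% of the 5mC reads, 68.1% of IgG ChIP and 64.2% of IgG MeDIP. PCR without molecular identifiers was used, so intervals cover counting error only. Windows were kept where the mean CPM of the 6 libraries lay between 25% and 10 times the median, and 1 kb windows followed their 10 kb window. The 5mC against IgG MeDIP comparison used limma 3.58.1 with an intensity trend (R 4.3.3, two-sided, pseudocount 0.5 reads, thinning seed 1, Benjamini-Hochberg threshold 0.05). The lone IgG MeDIP library was taken to vary as the 5mC replicates do. Counting and exact intervals used Python 3.11.15 with scipy 1.17.1, and the scripts were tested on simulated data.

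In 1 label field both IgG libraries name the H2A.B antibody; the title and the antibody field, which give IgG, were used. The interval, the members and the lists were chosen with earlier results of these data known. Named windows were the 5 most extreme 10 kb windows called in each direction, the 10 high 1 kb windows with the largest smallest 5mC CPM, the 10 with the most H2A.B reads and the 5 nearest 900 kb windows. An mm9 genome was not used here. The alternatives counted all reads, shifted reads by 100 bp, removed the filter, changed windows, flanks, seeds, pseudocount and thresholds, or left out blocks or libraries.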

Additional observations from a re-analysis of the deposited data

How the results depend on the processing

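The limma difference of the domain (0.35) ran from -0.0254 to 0.68 when 1 5mC library was left out, the lowest without replicate 1, and adjusted p ran from 0.769 to 1 over all 23 alternatives. Over the genome limma called 11 windows higher without thinning, 1 without the filter and up to 3 with 9 other seeds. The H2A.B ratio of 1.27 was 0.909 when divided by that of the flanks. The density of H2A.B over the flanks was 0.911 with flanks of 0.5 Mb, against 0.875. The 10 kb rule called 5 enriched and 3 mirrored windows with all reads (2.55% and 5.45% of the genome), and 0 and 1 when divided by the median of the flanks (0.0646% and 5.85%). The same rule called 3 enriched in windows of 20 kb, where 2.37% of the genome was called. In windows of 100 kb it called 3 of 9, where 9.66% of the genome was called. Windows high in 5mC numbered 11 with all reads (0.238% of the genome), 15 at 2 reads or more (0.507%) and 1 at 5 or more (0.0200%). They numbered 3 with the first block of replicate 3 alone (0.0649%). Without replicates 1, 2 and 3 in turn they numbered 6, 8 and 52 (0.288%, 0.153% and 1.45%). Windows high in H2A.B numbered 195 at 2 times the mean (9.78% of the genome) and 8 at 5 times (0.302%). With 1 library left out, the 5mC mean over the domain mean ran from 2.39 to 4.04 at the control region, 0.302 to 1.60 at the Meg3 start, 1.49 to 2.36 at Dio3, 0.647 to 1.35 at Dlk1 and 0.957 to 0.967 between Meg3 and Dio3, and the domain over its flanks from 0.920 to 1.02. The cause was not tested for any of these. The filter on windows does not enter the H2A.B ratio over the domain, so that alternative was not run. No paired analysis was possible because the IgG groups and H2A.B hold 1 library each. At 64 reads of IgG MeDIP and 220 of IgG ChIP in 900 kb, neither control allowed a comparison at single genes.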
